A study of Mus musculus with 4 samples.

Results

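The genes of 8 myeloid C-type lectin receptors were examined in erythroblasts, the nucleated precursors of red cells, taken from the bone marrow of mice that lack the DNA-damage-dependent ADP-ribosyltransferase Parp2 and of wild type mice. The members were Clec12a, Clec4a2, Clec4d, Clec4e, Clec4n, Clec5a, Clec7a and Clec10a, 8 of the 19938 genes that a probe set of the array names alone. Each of the 8 was named by exactly 1 probe set, so no choice between probe sets had to be made. There were 2 arrays of Parp-2-/- cells and 2 arrays of WT cells, all on a C57BL/6 background and all sorted as Ter119+CD71+ bone marrow cells. Ter119 is a surface marker of the erythroid lineage and CD71 is the transferrin receptor. Age, sex and the construction of the knockout allele were not stated in the labels, and nothing there says whether the 2 arrays of a genotype came from separate animals, so that the spread between them may be technical. All values are deposited log2 expression values, on which a difference of 1 is a doubling.

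C-type lectins are receptors whose calcium-dependent or related folds bind sugars, lipids or proteins on microbes and on damaged cells, and many are displayed by neutrophils, monocytes, macrophages and dendritic cells. Activating members pass their signal through an ITAM, a tyrosine motif that docks the kinase Syk, which lies either in the receptor's own tail or in a small partner protein such as the Fc receptor gamma chain (Fcer1g) or DAP12 (Tyrobp). From Syk the signal runs through CARD9, BCL10 and MALT1 to NF-kB. Inhibitory members carry an ITIM, which recruits the phosphatases SHP-1 (Ptpn6) and SHP-2 (Ptpn11) and dampens such signals.

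Stretches of DNA around the start of 3 members are shown, picked from the 5 members that lay lower on both knockout arrays. These stretches hold letters that myeloid transcription factors are known to prefer. They were taken from RefSeq on the build GRCm38.p6, each 300 bases long, 250 before the start of the gene and 50 after it, and written 5′ to 3′ on the strand of the gene. The Clec12a window is chr6:129349994-129350293 on the plus strand, that of Clec5a is chr6:40585756-40586055 on the minus strand and that of Clec4e is chr6:123289822-123290121 on the minus strand. Capitals mark matches, on either strand, to TTGCNNAA, a form of the C/EBP motif, and to GAGGAA, the core of the PU.1 motif (TTCCTC on the other strand).
Clec12a: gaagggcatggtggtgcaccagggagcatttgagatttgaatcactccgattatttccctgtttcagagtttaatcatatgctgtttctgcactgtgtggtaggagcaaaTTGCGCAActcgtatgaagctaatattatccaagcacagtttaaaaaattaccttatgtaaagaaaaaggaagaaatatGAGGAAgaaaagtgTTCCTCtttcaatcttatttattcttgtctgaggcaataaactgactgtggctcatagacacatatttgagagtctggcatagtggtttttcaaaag
Clec5a: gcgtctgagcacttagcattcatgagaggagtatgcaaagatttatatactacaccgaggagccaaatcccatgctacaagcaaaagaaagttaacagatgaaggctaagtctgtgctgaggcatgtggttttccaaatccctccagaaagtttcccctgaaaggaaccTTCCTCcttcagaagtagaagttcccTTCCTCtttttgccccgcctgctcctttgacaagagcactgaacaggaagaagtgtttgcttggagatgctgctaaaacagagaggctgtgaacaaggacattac
Clec4e: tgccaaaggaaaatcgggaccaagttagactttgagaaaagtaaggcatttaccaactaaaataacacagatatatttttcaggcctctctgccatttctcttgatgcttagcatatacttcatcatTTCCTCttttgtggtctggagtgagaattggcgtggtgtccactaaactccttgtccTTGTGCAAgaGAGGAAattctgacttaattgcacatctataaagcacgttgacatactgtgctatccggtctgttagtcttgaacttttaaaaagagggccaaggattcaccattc

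Of the 8 members 6 had such a window in the RefSeq table. The Clec12a window held the full C/EBP palindrome TTGCGCAA, which is also a case of TTGCNNAA, with its first base 140 bases before the start. That palindrome stood in 0.183% of all 32851 windows of this length, and in 1 of the 6 member genes. The looser TTGCNNAA stood in 10.8% of all windows and in 2 of the 6 member genes, Clec12a and Clec4e. GAGGAA stood in 28.3% of all windows and in 5 of the 6 member genes. Clec12a had it on both strands, 61 and 47 bases before the start. Clec4d, not shown, also held it, and so did Clec7a, whose groups overlapped between the genotypes. Clec4a2, which lay lower on both knockout arrays, had a window with no match to any of these motifs. A link between the motifs and the differences was not tested. AGATAA, a form of the motif of the erythroid factor GATA1, stood in 11.2% of all windows and in 0 of the 6. The motifs were chosen after the windows had been read, and a match is a string of letters, not a measured binding site.

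The set was chosen by the measured difference of Clec12a between the genotypes, with values of these arrays known for its relatives as well, so the values of this comparison describe the members and are given with no test. All 8 differences were below 0, where 43.6% of the 23410 annotated probe sets were. The 2 genotypes did not overlap for 5 of the 8, with the knockout lower, namely Clec12a, Clec5a, Clec4a2, Clec4e and Clec4d, where this held for 9.42% of all probe sets. The same 5 differed by at least 0.5 on the log2 scale, as did 10.9% of all probe sets in that direction. The median of the 8 differences was -0.70, beside +0.08 over all 19938 genes. Leaving out wild type replicate 2 gave a median of -0.94, and leaving out wild type replicate 1 gave -0.49.

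**Figure D1:**
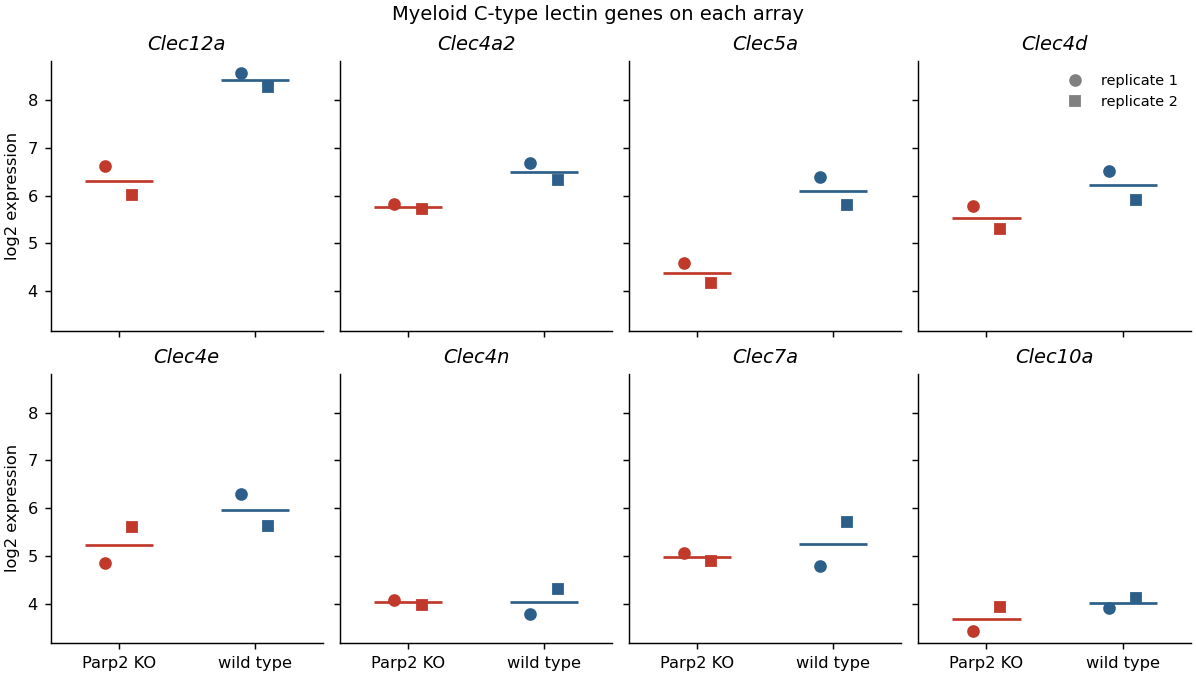
Log2 expression (vertical axis) of each of the 8 lectin genes in Parp2 knockout (red, left) and wild type (blue, right) erythroblasts; circles are replicate 1, squares replicate 2 and bars the mean of 2 arrays. Clec12a and Clec5a show the widest separation, while the arrays of Clec4n, Clec7a and Clec10a overlap.

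Of the inhibitory receptors, Clec12a, also called MICL or CLL-1, is an ITIM receptor of granulocytes, monocytes and dendritic cells that recognises uric acid crystals. Its values were 6.62 and 6.00 on the knockout arrays (replicates 1 and 2), against 8.56 and 8.27 on the wild type arrays. The knockout arrays thus lay well below the wild type arrays, and the gap between the groups was wider than the spread within either. The means were 6.31 ± 0.44 in knockout cells and 8.42 ± 0.20 in wild type cells (SD, n = 2 each), a difference of -2.10 ± 0.40 (SE), or 4.30-fold lower. With any 1 array left out the difference lay between -2.41 and -1.79.

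Clec4a2 encodes DCIR, the other inhibitory receptor with an ITIM in the set. It read 5.83 and 5.72 on the knockout arrays, against 6.68 and 6.32 on the wild type arrays. Its groups did not overlap either, but the distance was smaller than that of Clec12a, with a difference of -0.73 ± 0.36 (SE, n = 2 per group), or 1.65-fold lower. Clec4a2 has close paralogs next to it, and signal shared among them cannot be told apart on the array.

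Among the activating receptors Clec5a had the widest difference. It encodes MDL-1, a receptor that binds dengue virus and signals through the adaptors DAP12 and DAP10. Its values were 4.60 and 4.16 on the knockout arrays, against 6.39 and 5.80 on the wild type arrays. Both knockout values lay more than 1 unit below the lower wild type value. The means were 4.38 ± 0.31 in knockout cells and 6.09 ± 0.42 in wild type cells (SD, n = 2 each), a difference of -1.71 ± 0.40 (SE), or 3.28-fold lower. Without wild type replicate 1 the difference was -1.41, and without wild type replicate 2 it was -2.01.

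Clec4d and Clec4e encode MCL and Mincle, receptors of mycobacterial cord factor that work together and signal through the Fc receptor gamma chain. Clec4d read 5.79 and 5.29 on the knockout arrays, against 6.51 and 5.92 on the wild type arrays. Here the higher knockout value came close to the lower wild type value, and the difference was -0.67 ± 0.41 (SE, n = 2 per group). Clec4e read 4.85 and 5.60 on the knockout arrays, against 6.31 and 5.64 on the wild type arrays. Its groups were parted only by the small step between the replicate 2 arrays, and the difference was -0.75 ± 0.44. With 1 array left out the differences ranged from -0.97 to -0.38 for Clec4d and from -1.12 to -0.37 for Clec4e, so that single arrays set much of their size.

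The remaining activating receptors showed overlapping groups. Clec7a encodes Dectin-1, the receptor of fungal beta-glucan, which carries an ITAM-like motif in its own tail. It read 5.07 and 4.89 on the knockout arrays, against 4.78 and 5.72 on the wild type arrays. The knockout values lay between the wild type values, and the difference of -0.27 ± 0.43 (SE, n = 2 per group) became +0.20 without wild type replicate 2. Clec4n encodes Dectin-2, a receptor of fungal mannans that uses the Fc receptor gamma chain. It read 4.07 and 3.97 on the knockout arrays, against 3.78 and 4.31 on the wild type arrays. Its difference was -0.02 ± 0.38, and it became +0.25 when wild type replicate 2 was left out and +0.03 when knockout replicate 2 was.

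Clec10a encodes MGL1, a receptor of galactose-type sugars on macrophages and dendritic cells. Its values were 3.43 and 3.94 on the knockout arrays, against 3.92 and 4.12 on the wild type arrays. The groups overlapped narrowly, and the difference was -0.33 ± 0.38 (SE, n = 2 per group), between -0.58 and -0.08 with 1 array left out. Of the 8 members 4 (Clec12a, Clec4a2, Clec4d and Clec4e) had a mean over the 4 arrays above 5.36, the median of the annotated probe sets. Clec5a, Clec7a, Clec4n and Clec10a had means below it, a range in which normalised array values tend to understate differences. Whether this held for these genes was not tested.

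The order of the 4 arrays split the members into groups that the genotype alone does not define. In Clec12a, Clec5a, Clec4a2 and Clec4d the order from high to low was wild type replicate 1, wild type replicate 2, knockout replicate 1 and knockout replicate 2, an order found in 3.45% of all probe sets. In these 4 genes replicate 2 thus lay below replicate 1 in both genotypes, by 0.62 among the knockout arrays and 0.29 among the wild type arrays for Clec12a. Clec4n and Clec7a shared another order, with wild type replicate 2 highest and wild type replicate 1 lowest. Clec4e was alone among the 8 in having the higher knockout value on replicate 2 and the higher wild type value on replicate 1. Knockout replicate 2 also stood apart over the whole array, with an interquartile range of 1.98 log2 units against 2.94 on knockout replicate 1 and 2.62 and 2.91 on the wild type arrays; without it, the differences of Clec12a and Clec5a were -1.79 and -1.49. The labels do not say what the replicate number marks.

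Likeness to Clec12a was measured as the root mean square distance between array profiles, each gene centred on its own mean over the 4 arrays, among 18654 named genes. The 10 nearest were Gpr137b-ps (0.116), Klhl6 (0.137), Ms4a6c (0.146), the leukocyte formin gene Fmnl1 (0.190), the glutathione transferase gene Mgst1 (0.203), the chitinase-like gene Chil3 (0.224), Cmtm7 (0.224), Clec5a (0.233), the intermediate filament gene Vim (0.248) and the tetraspanin gene Cd9 (0.260). Clec5a was the nearest of the members, at rank 8. The others were farther, with Clec4a2 at 0.713 (rank 607), Clec4d at 0.725 (rank 661), Clec4e at 0.846 (rank 1565) and Clec4n the farthest at 1.10 (rank 6873). Nearest to the mean profile of all 8 members were Ptpn22 (0.0367), Pramel12 (0.0378), Cog2 (0.0445), Derl2 (0.0499) and Cd93 (0.0533). With 4 arrays such a ranking describes these arrays and nothing more.

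**Figure D2:**
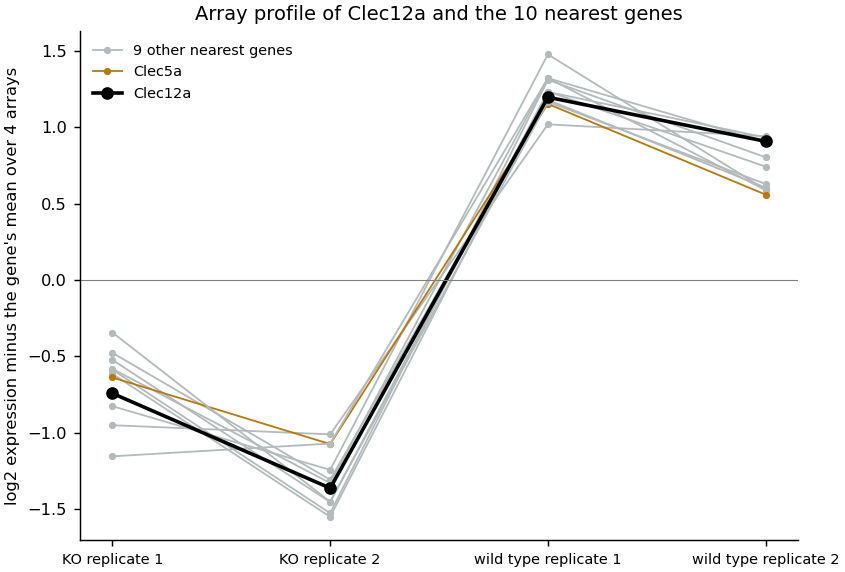
Log2 expression minus the mean of each gene over 4 arrays (vertical axis) on the knockout and wild type arrays (horizontal axis) for Clec12a (black), Clec5a (orange) and the other nearest genes (grey); lines join the values of a gene. Having been picked for nearness to Clec12a, all of these genes share its form. They lie below their mean on both knockout arrays and above it on both wild type arrays.

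Further gene lists were compared next. Some hold genes of C-type lectin signalling (adaptors and kinases, the CARD9 module and NF-kB, phosphatases, downstream targets). The others hold 63 measured C-type lectins, 28 other innate receptors and 11 myeloid transcription factors, not listed for a role in that signalling. Limma, a linear model with moderated variances, found 0 of the 23410 probe sets past a Benjamini-Hochberg adjusted p of 0.05 (0%; 486 of them, or 2.08%, had an unadjusted p under 0.05). Hence 0 of the 149 genes in these 7 lists passed in either direction. Their values are given on that footing. Of the 12 measured adaptors and kinases next to the receptors, 11 had a difference below 0, and the groups of 8 did not overlap in that direction. Over all probe sets the shares were 43.6% and 9.42%. The median of the 12 was -0.89, or -0.53 without knockout replicate 2.

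The adaptor genes themselves were among them. Tyrobp, the DAP12 adaptor of Clec5a, read 10.16 and 8.72 on the knockout arrays, against 11.09 and 10.45 on the wild type arrays, a difference of -1.33 ± 0.55 (SE, n = 2 per group). Hcst, the DAP10 adaptor, read 7.26 and 5.66 on the knockout arrays, against 8.62 and 7.86 on the wild type arrays, a difference of -1.78 ± 0.59. Fcer1g, the gamma chain used by Clec4d, Clec4e and Clec4n, read 10.13 and 8.59 on the knockout arrays, against 10.70 and 10.20 on the wild type arrays, a difference of -1.08 ± 0.56. In all 3 genes knockout replicate 2 was the lowest array, and knockout replicate 1 lay nearer to the wild type arrays. Syk differed by -0.95, the exchange factor gene Vav1 by -0.96 and the linker gene Blnk, which B cells also use, by -1.03. Fcgr2b, the inhibitory Fc receptor, was the exception in this list at +0.27.

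The 13 measured genes of the CARD9 module and NF-kB had a median of -0.22, with 9 below 0 and 4 of them without overlap; without wild type replicate 2 it was -0.38. Malt1 (-0.85), Bcl10 (-0.67) and Nfatc1 (-0.63) lay below 0, Card9 differed by -0.37 with overlapping groups, and Relb by +0.48. All 5 phosphatase genes had differences below 0, 4 of them without overlap, with a median of -0.78, which was -0.47 without knockout replicate 2. For both lists the shares over all probe sets were 43.6% below 0 and 9.42% lower without overlap. Ptprc, encoding CD45, was at -1.01, the lipid phosphatase gene Inpp5d at -1.34, Ptpn22 at -0.78 and Ptpn6, a partner of Clec12a, at -0.58, while Ptpn11 differed by -0.05.

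**Figure D3:**
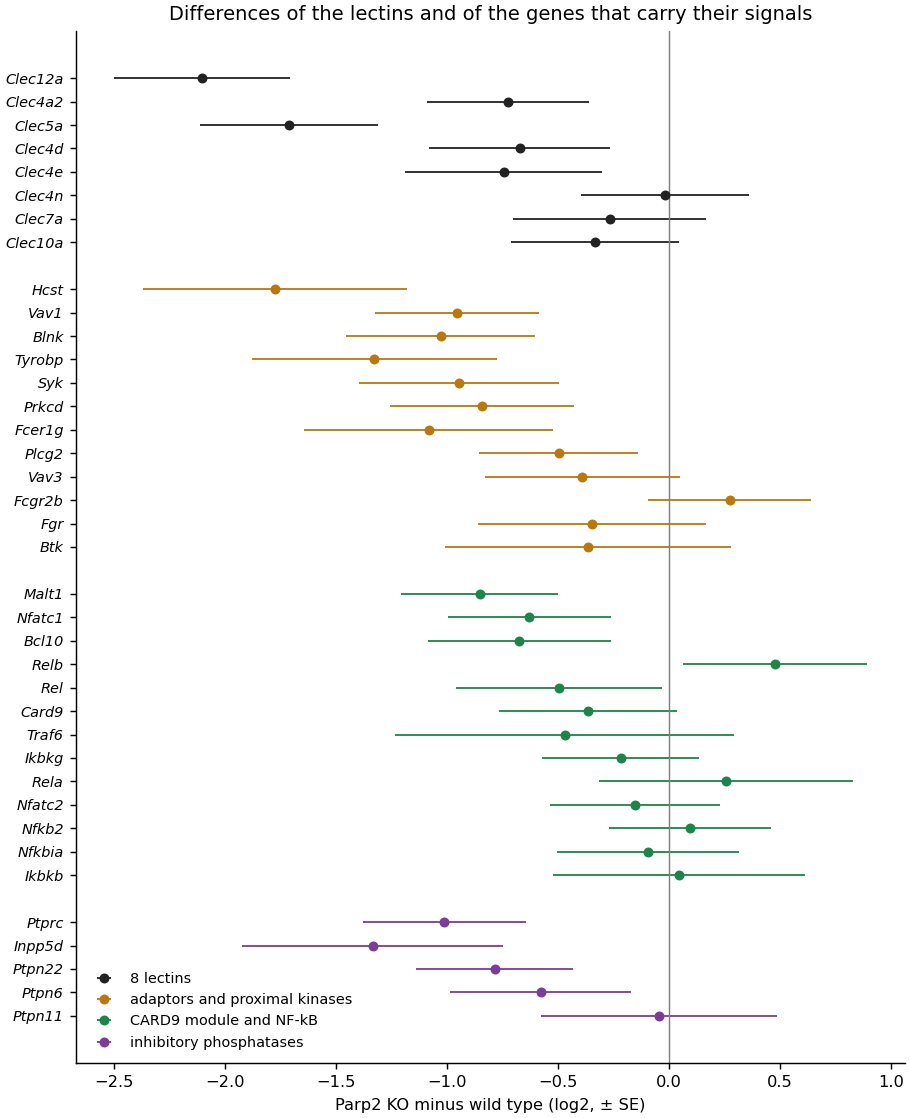
Knockout minus wild type difference in log2 expression (horizontal axis; points, with bars for the SE from limma, 2 arrays per genotype) for the 8 lectins (black) and 3 lists of signalling genes (colours). The adaptor genes Hcst at -1.78 and Tyrobp at -1.33 lie on the side of Clec12a and Clec5a, and the genes of the CARD9 module and NF-kB lie on both sides of 0.

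Genes induced or processed downstream of activating lectins went both ways. Of 17 measured, 8 had a difference below 0, and the median was +0.03, or -0.04 when the arrays were centred on their medians and -0.05 after repeated quantile normalisation. Among the 6 with a mean above the median of the annotated probe sets it was -0.56, though high values in 1 genotype could carry a gene past that filter. With 1 array left out the median of the 17 lay between -0.24 (without knockout replicate 2) and +0.16 (without wild type replicate 1). Casp1, encoding the protease that matures interleukin 1 beta, stood apart with 4.04 and 3.86 on the knockout arrays, against 6.35 and 5.06 on the wild type arrays, a difference of -1.76 ± 0.50 (SE, n = 2 per group). The inflammasome adaptor gene Pycard was at -0.68 and Casp8, which Dectin-1 signalling can also engage, at -0.68, whereas the cytokine genes Il1b (-0.45), Tnf (-0.22), Il6 (+0.08) and Cxcl2 (+0.58) showed no common direction.

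A chosen list of other genes of the C-type lectin superfamily was set beside the members. It does not hold all of them, and Clec2m, for example, is not in it. Of 65 listed genes 63 were measured, and 29 of them had a difference below 0, as did 43.6% of all probe sets. Groups did not overlap for 10 genes lower in the knockout and for 9 higher ones. Over all probe sets this held for 9.42% downwards and 15.6% upwards. The median of the 63 was +0.04, or -0.03 with centred arrays and -0.08 after repeated quantile normalisation. Among the 12 brighter of these genes, those with a mean above the median of the annotated probe sets, it was -0.69. For the 4 members that passed the same filter it was -0.74. The filter took the mean over all 4 arrays, so high values in 1 genotype could carry a gene past it. Cd72, for example, passed with a knockout mean of 4.86 and a wild type mean of 6.58. These 2 medians therefore describe the filtered genes only. With 1 array left out the median of the 63 lay between -0.17 (without knockout replicate 2) and +0.25 (without knockout replicate 1), and it was -0.01 without wild type replicate 1. The set was chosen by the difference of Clec12a, so its rank here restates that choice in part. Of the 63, 0 had a difference farther below 0 than Clec12a and 2 had one farther below than Clec5a. Those 2 were the natural killer receptor gene Klrb1f, with 4.12 and 4.13 on the knockout arrays, against 7.24 and 5.05 on the wild type arrays (-2.02), and the B cell receptor gene Cd72 (-1.72). Clec2d (-1.24) and the activation marker Cd69 (-0.99) followed by their unadjusted p.

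The members were chosen as relatives of Clec12a, so their position in the genome is not independent of that choice. In RefSeq order on the assembly GRCm38.p6, which served here for gene order, 7 of the 8 members lie on chromosome 6 and Clec10a on chromosome 11. Clec4a2, Clec4n, Clec4d and Clec4e stand in 1 group of 8 measured lectin genes, with bounds set at Clec4a3 and Clec4e. All had differences below 0, from -1.30 for Clec4a3 to -0.02 for Clec4n. The values of the members among them were known when the set was chosen. Clec4a1 (-1.04, with overlap) was not among the 8. Groups did not overlap for 3 of the 8 measured lectin genes (Clec4a2, Clec4d and Clec4e), all members. In the rest of them, Clec4n included, the genotypes overlapped. Over all probe sets the shares were 43.6% below 0 and 9.42% lower without overlap. For Clec4a3 the values were 3.70 and 5.84 on the knockout arrays, against 7.04 and 5.08 on the wild type arrays, with wide overlap.

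Clec12a and Clec7a stand in a second group, with natural killer lectin genes on both sides. Of 18 measured genes there, 11 had a difference below 0, and 6 of those, Clec12a among them, had groups without overlap. Over all probe sets the shares were 43.6% below 0 and 9.42% lower without overlap. The gene next to Clec12a on one side, Clec12b, encoding another ITIM receptor, read 4.09 and 4.78 on the knockout arrays, against 4.17 and 4.68 on the wild type arrays, a difference of +0.01. Clec2m on the other side was at +0.17. Clec1b, the platelet receptor CLEC-2, was at -0.21, Clec9a, a dendritic cell receptor of dead cells, at -0.41, and Olr1 at -0.79. The differences of both genes adjacent to Clec12a were smaller than their SE of 0.42 and 0.41. Around Clec5a, the adjacent genes Olfr460 (+0.01) and Tas2r138 (+0.16) encode chemosensory receptors, and Mgam beyond them was at -0.40.

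**Figure D4:**
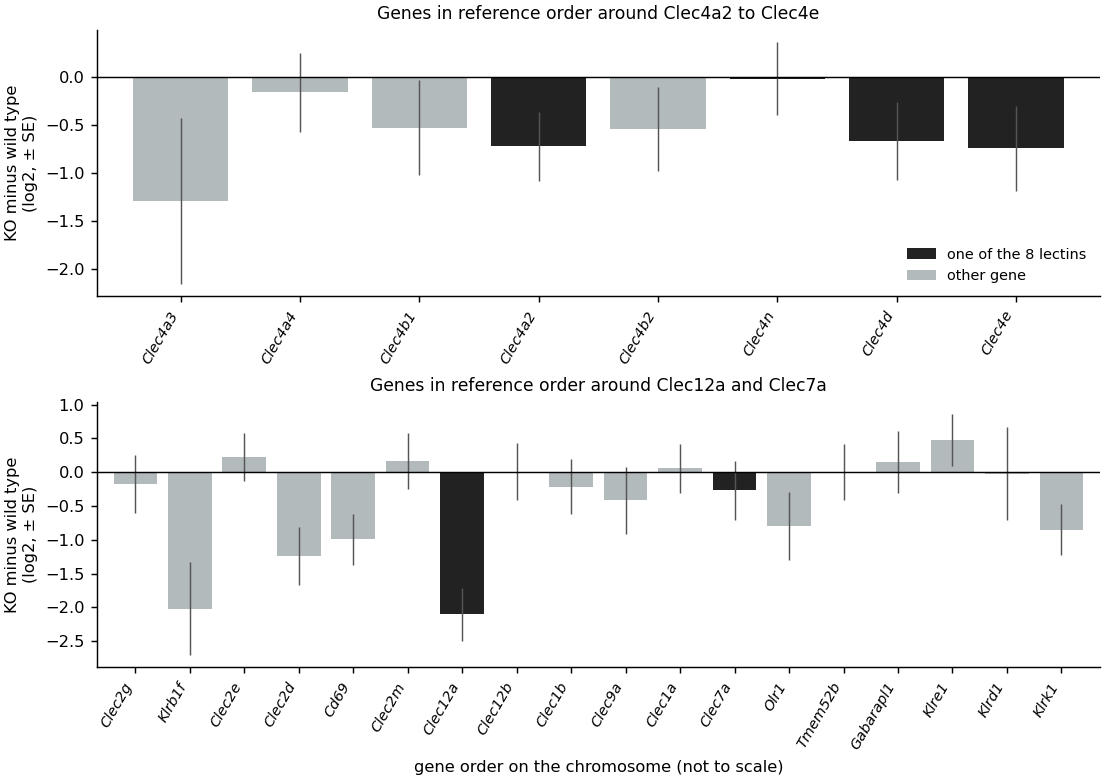
Knockout minus wild type difference in log2 expression (vertical axis; bars, with lines for the SE, 2 arrays per genotype) for the measured protein-coding genes around Clec4a2 to Clec4e (top) and around Clec12a and Clec7a (bottom), in reference order and not to scale. Clec12a at -2.10 stands beside Clec2m at +0.17 and Clec12b at +0.01.

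Markers of other blood cells were compared on the same arrays, and 0 of them passed the adjusted test. Over all probe sets 43.6% lay below 0 and 9.42% were lower without overlap, shares to set beside the counts here. All 18 neutrophil markers had a difference below 0, 15 of them without overlap, with a median of -1.59, which came to -0.85 once wild type replicate 1 was dropped and to -0.99 once knockout replicate 2 was. Their mean log2 level was 9.49 and 8.69 on the knockout arrays, against 10.94 and 10.04 on the wild type arrays. Clec12a lay within this list: 1 of the 18 markers, Mmp9 (-2.15), had a difference farther below 0 than Clec12a, and 5 had one farther below than Clec5a. Among 17 monocyte and macrophage markers 14 had a difference below 0, 7 without overlap, with a median of -0.73, which was -0.39 without knockout replicate 1; their mean log2 level was 6.16 and 6.74 on the knockout arrays, against 6.88 and 7.41 on the wild type arrays. Of these 0 lay farther below 0 than Clec12a and 1, Ms4a6c (-1.98), lay farther below than Clec5a. The set was chosen by the difference of Clec12a, so its rank in both lists restates that choice in part. The 15 dendritic cell markers had a median of -0.19, with 10 below 0 and 5 above it. On each side 1 marker was without overlap (Zbtb46 was the higher one, at +0.49), where 15.6% of all probe sets were higher without overlap. With 1 array left out that median lay between -0.06 and +0.15, the higher value coming when wild type replicate 1 was dropped, so that dropping 1 array turned its direction. The 12 B cell markers had a median of -0.93, between -1.19 and -0.77 with 1 array left out. The 12 basophil, mast cell and eosinophil markers had a median of -0.40, which became -0.18 (wild type replicate 1 dropped), -0.24 (knockout replicate 1 dropped) or -0.61 (wild type replicate 2 dropped), and -0.85 among the brighter probe sets. The 10 T and NK cell markers had a median of -0.28, which became -0.02 (knockout replicate 1 dropped), -0.54 (knockout replicate 2 dropped) or -0.57 (wild type replicate 1 dropped), and -0.44 among the brighter probe sets. Brightness was the mean over all 4 arrays, so high values in 1 genotype could carry a gene past that filter. Of the 6 megakaryocyte and platelet markers 4 were above 0, with a median of +0.14 that became -0.28 (knockout replicate 2 dropped), -0.24 (wild type replicate 1 dropped), +0.56 (knockout replicate 1 dropped) or +0.52 (wild type replicate 2 dropped). None of these markers was at 0, since normalised log2 values have no such floor, and their part in the values of the lectins was not tested. In sorted cells measured in bulk, fewer cells of a type and less RNA per cell cannot be told apart.

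Markers of the sorted cell type were read as well, which cannot show how pure the sort was. On wild type replicate 1 the neutrophil markers had a mean of 10.94, above the 10.33 of the erythroblast markers. On the other arrays the erythroblast markers had the higher mean. Of the 11 measured erythroblast markers 0 were free of overlap, where 9.42% of all probe sets were lower and 15.6% higher without it. Their mean log2 levels were 10.70 and 11.12 on the knockout arrays, against 10.33 and 11.30 on the wild type arrays, with a median difference of +0.08. That median became -0.41 (wild type replicate 1 dropped), -0.14 (knockout replicate 2 dropped) or +0.42 (wild type replicate 2 dropped), so that 1 array could turn its direction. Parp2 itself read 7.11 and 6.70 on the knockout arrays, against 8.24 and 7.65 on the wild type arrays. Among 28 other innate receptors 23 had a difference below 0, 11 of them without overlap, with a median of -0.44. Over all probe sets the shares were 43.6% and 9.42%. Of these receptors 0 lay farther below 0 than Clec5a or than Clec12a, by whose difference the set was chosen. Trem3 (-1.22), Fcgr3 (-1.19) and Tlr4 (-1.11) had the lowest unadjusted p. Among 11 myeloid transcription factors 9 were below 0, with a median of -0.64, which was -0.29 without knockout replicate 1. Spi1, encoding PU.1, read 7.93 and 6.05 on the knockout arrays, against 9.51 and 8.31 on the wild type arrays, a difference of -1.92 ± 0.70 (SE, n = 2 per group). Cebpe, the granulocyte member of the C/EBP family, was at -0.94, Cebpa at -0.71 and Cebpb at +0.18.

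**Figure D5:**
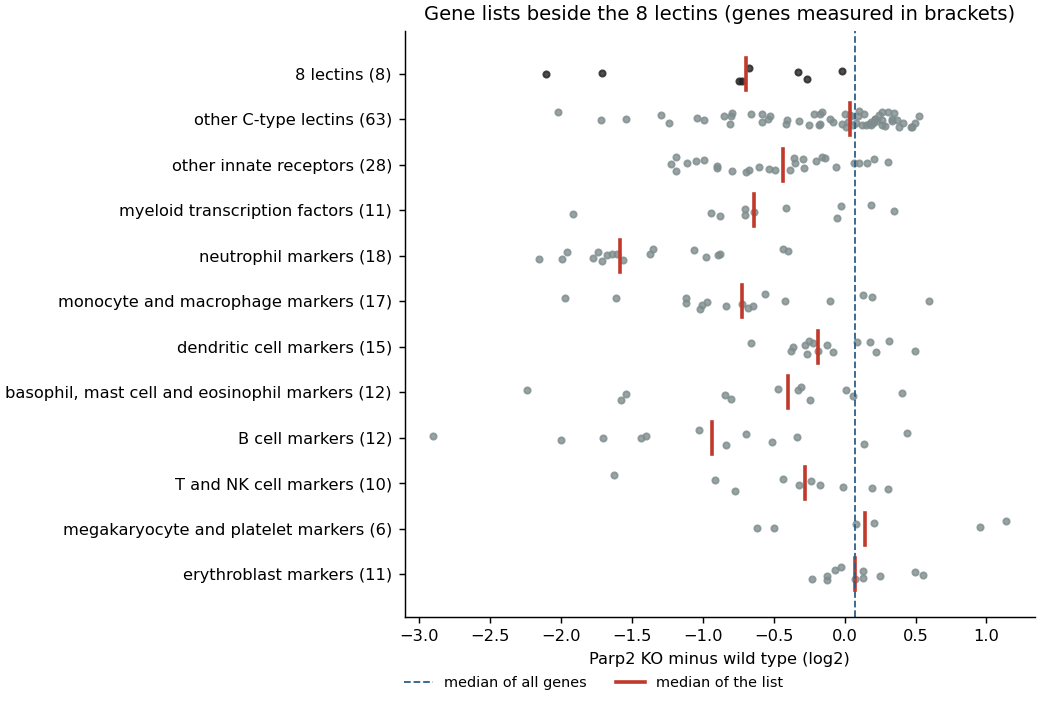
Knockout minus wild type difference in log2 expression (horizontal axis) of single genes (points) in the 8 lectins and 11 gene lists; red bars are list medians and the dashed line is the median of all genes, +0.08. The median of the 8 lectins, -0.70, lies between those of the myeloid transcription factors, -0.64, and of the monocyte and macrophage markers, -0.73. Without knockout replicate 1 these 2 list medians were -0.29 and -0.39, and single genes spread widely in each list. The other C-type lectins lie around the line. Among the 12 brighter ones the median was -0.69, by a filter that high values in 1 genotype could pass.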

How the data were processed

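The deposited file held log2 values by the authors for 35511 probe sets on 4 whole-transcript arrays, made from 100 ng of total RNA per sample per the labels. RMA, limma and R 3.0.2 are named per the submitters' processing notes; their roles are not given in the sources used here. The log2 values were used as deposited. Columns were matched to samples by their names, and genotype and replicate number came from the titles. Symbols came from the platform annotation: 21789 probe sets had 1 symbol, 1621 several, and the 23410 together were fitted in R 4.3.3 using the functions lmFit and eBayes of limma 3.58.1, 2 arrays per genotype, with Benjamini-Hochberg adjustment over all of them. The fit had 2 residual and 4.77 prior degrees of freedom. Each gene was represented by its probe set of highest mean among those naming it alone. In 10 simulated sets of 23410 probe sets, the test found 40.2% of true differences of 3 log2 units and 2.4% of those of 2. The members and lists were chosen with earlier results of these data known. Genes named are the 8 members, the genes of lowest p or needed role in each list, and the nearest profiles. Other settings tried were the replicate number as a block, each array left out, centring, repeated quantile normalisation, a brightness filter, other moderation, array weights, all rows, and means over probe sets. Precision is limited by having 4 arrays.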

Additional observations from a re-analysis of the deposited data

How the results depend on the processing

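The count of probe sets past limma's test was 0 (486 at an unadjusted p under 0.05), and 0 to 62 with 1 array left out (5 without wild type replicate 1; 62 when wild type replicate 2 was left out). It was 274 with the replicate number as a replicate block, 8 with trended and robust moderation and 0 in the other settings. The labels do not explain the replicate numbers, so they were not taken to pair the arrays, and whether they do is not known. The replicate differences of the genotypes correlated at 0.468 over probe sets, and the block left 1 residual degree of freedom. Of the 149 genes in the 7 lists of signalling genes, other lectins, innate receptors and transcription factors, 0 passed with all 4 arrays and no block. With the block 6 of the 149 passed (Casp1, Cd72, Hcst, Klrb1f, Prg2 and Spi1, all lower). Over all 23410 probe sets 274 passed with the block, 224 of them lower. The cause was not tested. Among the 6 genes, Cd72, Klrb1f and Prg2 come from the list of other C-type lectins. Without wild type replicate 2 the difference of Klrb1f was -3.12. The members below 0 were 8 of 8, and 6 to 8 with 1 array left out. Among the brighter probe sets 4 were measured and 4 were below 0, though the knockout mean of Clec4e, 5.23, lay below the cut of 5.36. The median of the members lay between -0.94 and -0.49 with 1 array left out. Clec12a stayed between -2.41 and -1.79, and Clec5a between -2.01 and -1.41, in all settings that gave a value.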
